A study of Brachypodium distachyon with 4 samples.

Results

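The 39 loci described here were at least 3-fold lower in leaves of the mutant jmj1-1 than in leaves of its wild type Bd21-3. They were chosen by their own read counts in these libraries. A locus was taken if it had 40 or more reads over both Bd21-3 libraries and a mean level in Bd21-3 at least 3 times that in jmj1-1. Levels are CPM, the reads of a locus divided by all counted reads of its library and scaled to a fixed total. Of the 35125 loci in the table, 34310 have BRADI identifiers and 19455 of these reached 40 reads in Bd21-3. The limits were passed by 44 loci, or 0.226% of those 19455. Another 5 of them were set aside by the rule, namely BRADI_1g08340v3, BRADI_1g48830v3, BRADI_1g59250v3 and, in the run of locus numbers from BRADI_2g60700v3 to BRADI_2g61400v3, BRADI_2g60970v3 and BRADI_2g61050v3. Since the counts chose the loci, the size of each fall is a description, and no test is attached to it.

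Brachypodium distachyon is a wild grass with a small genome that serves as a laboratory relative of the temperate cereals. JMJ names are given to proteins with a JmjC domain, most of which are enzymes that remove methyl groups from lysines of histones. Depending on the lysine, such a methyl mark goes with active or with silent chromatin, so the loss of a demethylase can lower some transcripts and raise others. Which BRADI locus is JMJ1 is not stated in the labels or the table, so the transcript of the mutated gene could not be examined. No table used here pairs BRADI identifiers with gene names or descriptions, so the loci are given by identifier and without a role, and neither pathway members nor markers that define a leaf could be looked up.

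Messenger RNA was sequenced from 2 libraries of jmj1-1 and 2 of Bd21-3. Both genotypes were harvested on day 17, with seedlings at leaf stage 4, at a zeitgeber time of 10 h. The day had a light phase of 20 h and a dark phase of 4 h. The labels give Bd21-3 as the line of the mutant samples too. The labels used here do not describe the lesion in jmj1-1 or the number of plants in a library. They do not say whether replicates are separate plants, so the spread between replicates may be technical. Total counts were 16089629 and 13825916 reads in jmj1-1, against 16520046 and 16130508 reads in Bd21-3. Replicates differed by more than sampling noise, with a chi-square per degree of freedom of 1.85 for the pair from jmj1-1 and 2.41 for the pair from Bd21-3.

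Together the 39 loci held 1134 and 1021 reads in the jmj1-1 libraries, against 5761 and 5467 reads in the Bd21-3 libraries. Their CPM summed to 70.5 and 73.8 in jmj1-1 and to 348.7 and 338.9 in Bd21-3. Without BRADI_5g10027v3 and BRADI_2g45143v3, which held 54.8% of the Bd21-3 reads of the 39 loci, the sums were 31.2 and 33.6 CPM in jmj1-1 and 162.0 and 148.8 CPM in Bd21-3. The 2 libraries of a genotype thus lay close together in both sums.

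The median locus was 4.23-fold lower in jmj1-1. The falls were unevenly spread, with 17 loci between 3-fold and 4-fold, 14 from 4-fold to 8.27-fold, and 8 from 10.1-fold upward. In 38 of the 39 loci both jmj1-1 libraries lay below both Bd21-3 libraries. The exception was BRADI_5g08580v3. In 22 loci the lower Bd21-3 library was still at least 3 times the higher jmj1-1 library. A limit on the ratio of means favours groups that lie apart, and the share over all loci was not counted. Nothing is therefore read from these counts, or from groups said below to lie apart.

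**Figure D1:**
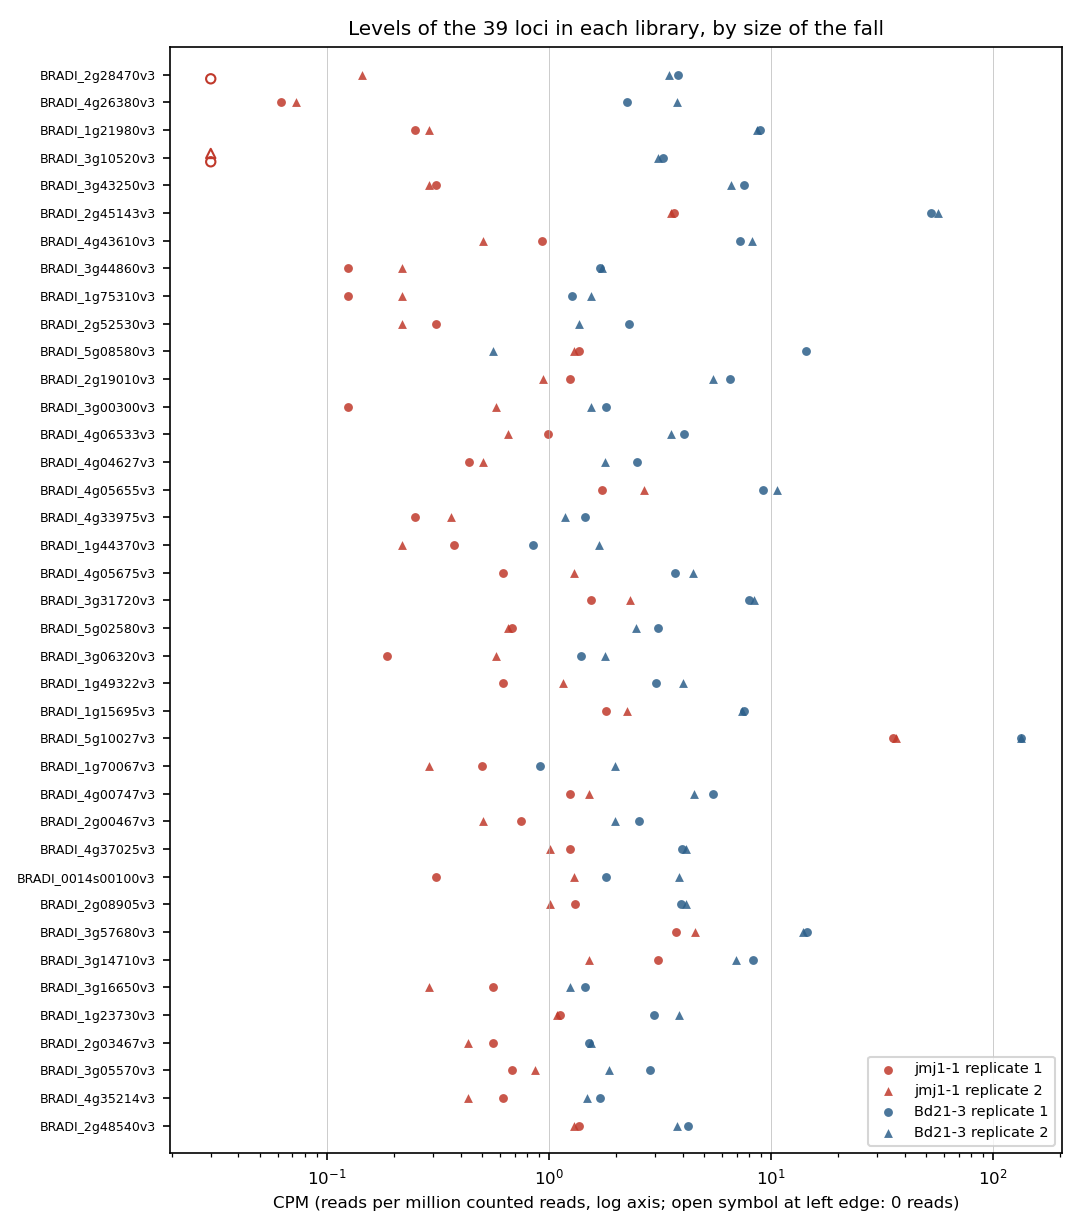
CPM of each of the 39 loci (rows, ordered by the size of the fall) in the 2 jmj1-1 libraries (red) and the 2 Bd21-3 libraries (blue) on a log axis, with circles for replicate 1, triangles for replicate 2 and open symbols for 0 reads. Red and blue symbols stand apart in every row except that of BRADI_5g08580v3.

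In 5 loci at most 9 reads were left over both jmj1-1 libraries while the Bd21-3 libraries together had 98 or more. BRADI_3g10520v3, on chromosome 3, had no read in either jmj1-1 library, against 54 and 50 reads in the Bd21-3 libraries. Against a floor of 3 reads over both jmj1-1 libraries its ratio was 31.8, a value that the floor sets. The exact 95% counting interval of the observed reads began at 25.4 and had no upper end. BRADI_2g28470v3, on chromosome 2, had 0 and 2 reads in jmj1-1, against 63 and 56 reads in Bd21-3, a ratio of 50.4 with an exact 95% counting interval from 14.8 to 455.4. Intervals are of the summed reads and cover counting error only.

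BRADI_4g26380v3, on chromosome 4, had 1 and 1 read in jmj1-1, against 37 and 61 reads in Bd21-3, a ratio of 44.8 (12.1 to 375.9). BRADI_1g21980v3, on chromosome 1, had 4 and 4 reads in jmj1-1, against 147 and 140 reads in Bd21-3, a ratio of 32.7 (16.5 to 76.9). BRADI_3g43250v3, on chromosome 3, had 5 and 4 reads in jmj1-1, against 125 and 107 reads in Bd21-3, a ratio of 23.7 (12.2 to 52.3). In each of these 5 loci the jmj1-1 libraries agree within a few reads, and the groups are far apart. The sizes of the ratios are known loosely, because the counts in jmj1-1 are so small.

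Another 3 loci were lower in jmj1-1 by 10-fold or more. BRADI_2g45143v3, on chromosome 2, had 59 and 49 reads in jmj1-1, against 866 and 908 reads in Bd21-3. That is 3.61 ± 0.087 CPM in jmj1-1 and 54.4 ± 2.7 CPM in Bd21-3 (SD, n = 2 each), a fall of 15.1-fold (12.4 to 18.5), and with so many reads it is the best measured of the large falls. BRADI_4g43610v3, on chromosome 4, had 15 and 7 reads in jmj1-1, against 120 and 133 reads in Bd21-3, and was 10.8-fold lower (6.81 to 17.1). BRADI_3g44860v3, on chromosome 3, had 2 and 3 reads in jmj1-1, against 28 and 28 reads in Bd21-3, and was 10.1-fold lower (4.15 to 32.8). In none of the 3 did the groups overlap.

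**Figure D2:**
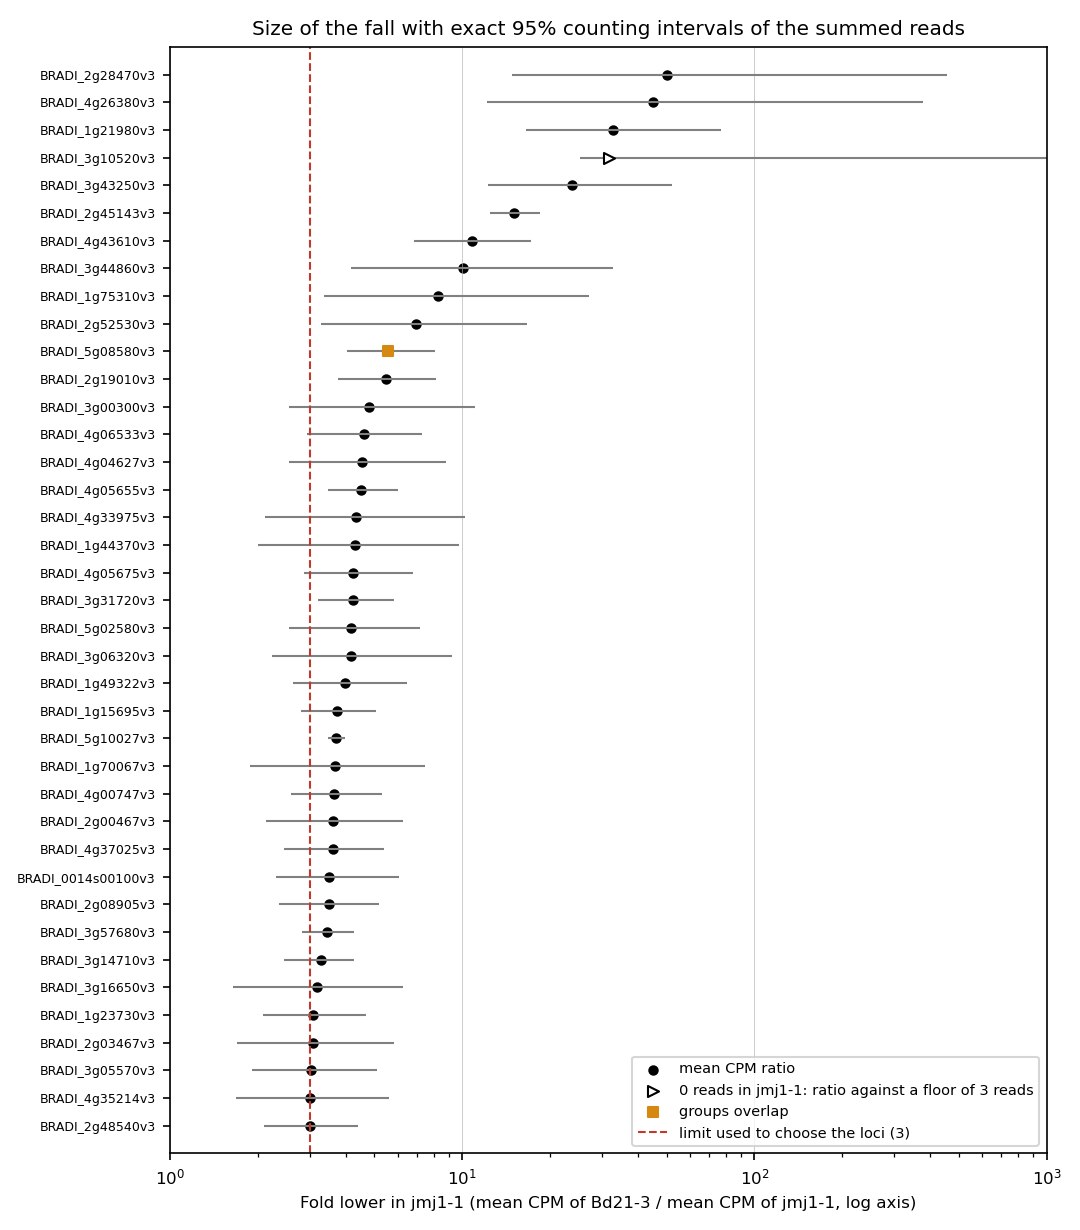
Fold by which each of the 39 loci was lower in jmj1-1 (mean CPM of Bd21-3 over mean CPM of jmj1-1, log axis), with lines for the exact 95% counting intervals of the summed reads, a dashed line at the limit of 3 and an open triangle for the locus with 0 jmj1-1 reads, whose interval has no upper end. The lower end of the interval is at or above 3 in 15 loci and under 3 in 24.

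BRADI_5g10027v3, on chromosome 5, had the most reads of the 39 and fell by a moderate factor. It had 573 and 508 reads in jmj1-1, against 2219 and 2159 reads in Bd21-3, or 36.2 ± 0.80 CPM in jmj1-1 and 134.1 ± 0.34 CPM in Bd21-3 (SD, n = 2 each). It was 3.71-fold lower in jmj1-1, with a narrow counting interval from 3.47 to 3.97, so 27.0% of its wild-type level was left. BRADI_3g57680v3, on chromosome 3, had 60 and 63 reads in jmj1-1, against 239 and 225 reads in Bd21-3, and was 3.43-fold lower (2.83 to 4.25). Replicates were close in both loci, the Bd21-3 libraries being 1.00-fold and 1.04-fold apart.

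Between these extremes, 4 loci fell by 5-fold to 8.27-fold. BRADI_1g75310v3, on chromosome 1, had 2 and 3 reads in jmj1-1, against 21 and 25 reads in Bd21-3, and was 8.27-fold lower (3.36 to 27.2). BRADI_2g52530v3, on chromosome 2, had 5 and 3 reads in jmj1-1, against 38 and 22 reads in Bd21-3, and was 6.94-fold lower (3.27 to 16.6). BRADI_2g19010v3, on chromosome 2, had 20 and 13 reads in jmj1-1, against 108 and 88 reads in Bd21-3, and was 5.49-fold lower (3.75 to 8.13). In these 3 loci the groups were apart, and the fourth was BRADI_5g08580v3.

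BRADI_5g08580v3 rested on 1 library. It had 22 and 18 reads in jmj1-1, against 237 and 9 reads in Bd21-3, or 1.37 and 1.30 CPM in jmj1-1 and 14.3 and 0.558 CPM in Bd21-3. Replicate 2 of Bd21-3 thus lay under both jmj1-1 libraries, and the Bd21-3 libraries were 25.7-fold apart. The locus was 5.58-fold lower in jmj1-1 by the means. Without Bd21-3 replicate 1 it was higher in jmj1-1, since the other Bd21-3 library had 0.418 times the jmj1-1 mean. The next locus in order, BRADI_5g08591v3, had 286 and 227 reads in jmj1-1, against 267 and 287 reads in Bd21-3, and so did not show the gap between the Bd21-3 libraries.

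Of the loci with 150 to under 500 Bd21-3 reads, BRADI_3g31720v3, BRADI_1g15695v3 and BRADI_3g14710v3 were 3-fold to 5-fold lower with groups apart. BRADI_3g31720v3 had 1.55 and 2.31 CPM in jmj1-1, against 7.99 and 8.37 CPM in Bd21-3, and was 4.23-fold lower. BRADI_1g15695v3 had 1.80 and 2.24 CPM in jmj1-1, against 7.57 and 7.44 CPM in Bd21-3, and was 3.71-fold lower. BRADI_3g14710v3 had 3.11 and 1.52 CPM in jmj1-1, against 8.29 and 6.94 CPM in Bd21-3. Its jmj1-1 libraries were 2.05-fold apart, and its fall of 3.29-fold became 2.45-fold without jmj1-1 replicate 2.

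The Bd21-3 libraries were over 2-fold apart at 2 further loci. BRADI_1g70067v3, on chromosome 1, had 8 and 4 reads in jmj1-1, against 15 and 32 reads in Bd21-3. BRADI_0014s00100v3, on an unplaced scaffold by its identifier, had 5 and 18 reads in jmj1-1, against 30 and 62 reads in Bd21-3. Both were lower in each jmj1-1 library than in either Bd21-3 library, and their folds of 3.68 and 3.51 became 2.31 and 2.25 without Bd21-3 replicate 2. The jmj1-1 libraries of BRADI_0014s00100v3 were 4.19-fold apart, so its fold ranged from 9.11, when jmj1-1 replicate 2 was omitted, down to 2.17, when jmj1-1 replicate 1 was. BRADI_1g70067v3 was at 2.91 without jmj1-1 replicate 2. With BRADI_5g08580v3 that makes 3 of 39 loci with Bd21-3 replicates over 2-fold apart, or 3 of the 37 under 500 reads, against 105 (1.10%) of the 9556 other loci with 40 to under 500 Bd21-3 reads. A limit on a ratio of means favours loci with 1 high Bd21-3 library, so nothing is read from this difference.

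**Figure D3:**
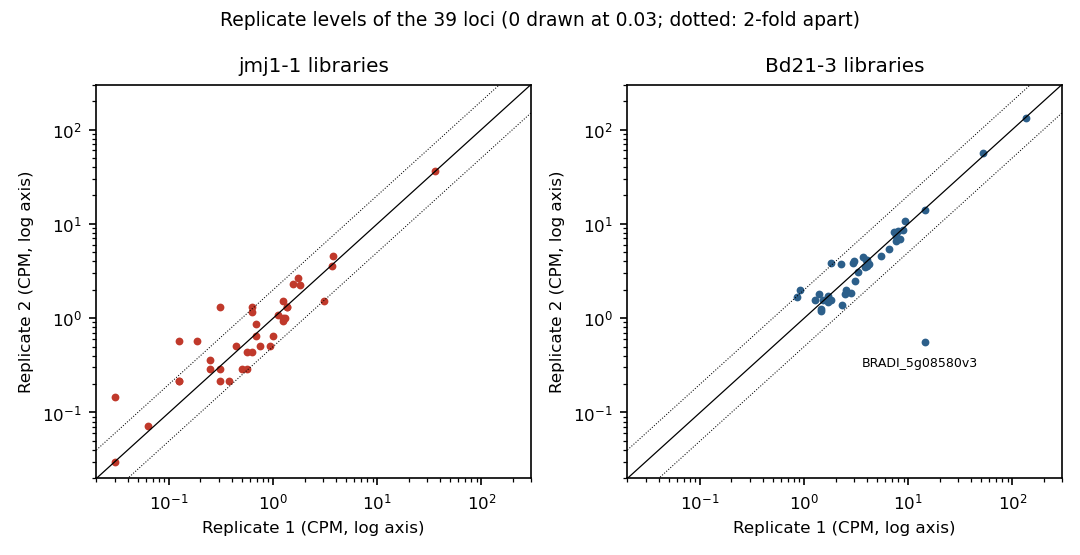
CPM of the 39 loci in replicate 1 (horizontal) and replicate 2 (vertical) of jmj1-1 (left) and Bd21-3 (right) on log axes, with 0 drawn at 0.03, a solid line for equal levels and dotted lines for a 2-fold difference. In Bd21-3 the point far under the lines is BRADI_5g08580v3, at 14.3 and 0.558 CPM.

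Outside BRADI_5g08580v3, 12 other loci were under 3-fold when 1 library was left out, and 26 of the 39 were at least 3-fold lower whichever library was left out. Of the 13 that were not, 9 had under 100 Bd21-3 reads, and 9 were under 4-fold with all libraries. The loci just inside the fold limit were BRADI_2g48540v3 (22 and 18 reads in jmj1-1, against 70 and 61 in Bd21-3, 3.00-fold lower), BRADI_4g35214v3 (10 and 6, against 28 and 24, 3.02-fold) and BRADI_3g05570v3 (11 and 12, against 47 and 30, 3.03-fold). Just outside it were BRADI_5g25320v3 (225 and 191 reads in jmj1-1, against 699 and 651 in Bd21-3, 2.97-fold lower), BRADI_4g11320v3 (132 and 85, against 363 and 331, 2.96-fold) and BRADI_1g23030v3 (10 and 4, against 30 and 14, 2.95-fold). The first 2 of these excluded loci had more reads than all but 2 of the 39.

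At the read limit, the loci just inside were BRADI_1g44370v3 with 6 and 3 reads in jmj1-1 and 14 and 27 in Bd21-3, BRADI_4g33975v3 with 4 and 5 in jmj1-1 and 24 and 19 in Bd21-3, and BRADI_3g16650v3 with 9 and 4 in jmj1-1 and 24 and 20 in Bd21-3. Just outside it, at a fold of 3 or more, were BRADI_4g23490v3 with 39 reads over the Bd21-3 libraries, BRADI_1g24377v3 with 38 and BRADI_2g07070v3 with 36. The last of these had 1 and 0 reads in jmj1-1, against 18 and 18 reads in Bd21-3, and was 35.5-fold lower.

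The remaining 12 loci were 3.08-fold to 4.79-fold lower. They had 2 to 21 reads per jmj1-1 library, with a median of 10.5, against 23 to 91 reads per Bd21-3 library, with a median of 49.5. Their groups did not overlap at any locus.

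The 39 loci were read less deeply than the rest. Their median was 115 reads over both Bd21-3 libraries, against 514.5 for the 19416 other loci with 40 reads or more, and 43.6% of them had under 100 reads, against 13.8% of the others. The chosen share was 0.888% (10 of 1126) at 40 to under 60 reads, 0.447% (7 of 1567) at 60 to under 100, 0.638% (9 of 1411) at 100 to under 150, 0.200% (11 of 5489) at 150 to under 500 and 0.0203% (2 of 9862) at 500 and more. Ratios of small counts scatter more widely, and the part of this in the falls was not tested. Reads here tell precision only, since locus lengths were not used and CPM of different loci are not levels on one scale.

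**Figure D4:**
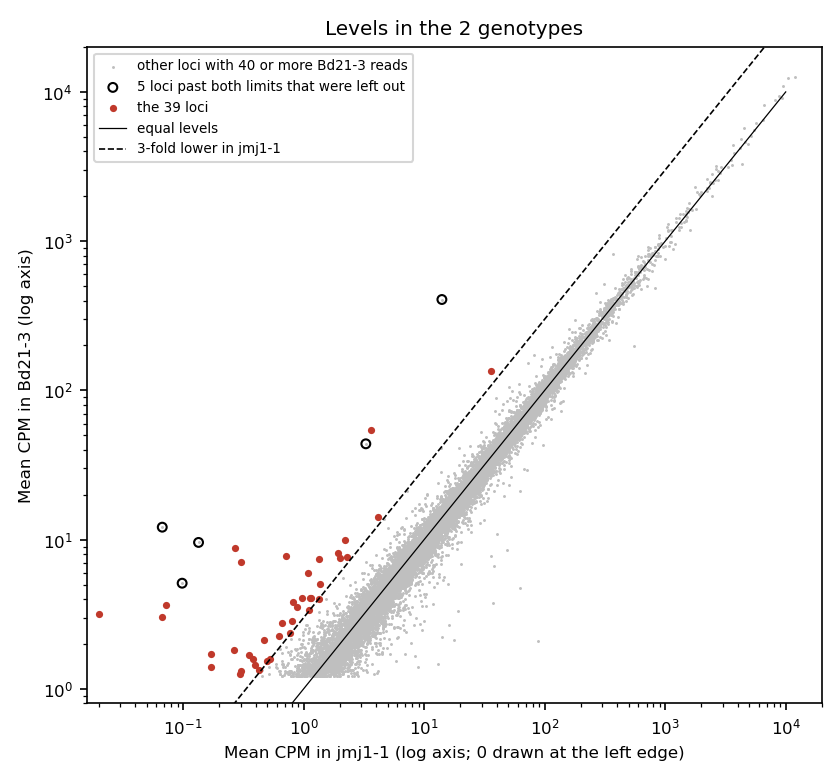
Mean CPM in jmj1-1 (horizontal, 0 drawn at the left edge) and in Bd21-3 (vertical) of all loci with 40 or more Bd21-3 reads on log axes, with the 39 loci in red, the 5 loci set aside as open circles, a solid line for equal levels and a dashed line for 3-fold lower in jmj1-1. Most red points lie under 10 CPM in Bd21-3 (36 of 39).

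With the genotypes exchanged, the same limits took 115 of 19436 loci (0.592%), against 44 of 19455 (0.226%) in the direction described here. In edgeR's quasi-likelihood test over all genes, 7.75% of 21456 tested loci were called lower in jmj1-1 and 6.13% higher, at an adjusted p under 0.05 with TMM scaling. With libraries scaled by their totals alone, 5.33% were called lower and 9.51% higher, so which direction had more calls depended on the scaling. All 39 loci passed the filter on low counts, and 39 of 39 were called lower. The rule used this same contrast, so nothing is read from that count. The median log2 ratio of CPM, jmj1-1 over Bd21-3, was -2.08 for the 39 loci and 0.05 for the 19416 other loci with 40 Bd21-3 reads.

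By locus number the 39 loci were scattered. Brachypodium locus numbers run in order along each chromosome. There were 7 loci on chromosome 1, 8 on chromosome 2, 10 on chromosome 3, 10 on chromosome 4, 3 on chromosome 5 and 1 on a scaffold. Set against all loci with 40 Bd21-3 reads, chromosome 4 held 25.6% of the 39 and 15.4% of all, and chromosome 1 held 17.9% and 29.9%. The 5 loci set aside by the rule lie on chromosomes 1 and 2. They are missing from the 39 but are part of all loci, which lowers the shares of these chromosomes among the chosen loci. The median distance from 1 of the loci to the next was 575 places in locus order, and a single pair lay within 10 places. These distances are of the 39 alone. The rule had taken out the run of locus numbers on chromosome 2, in which 2 loci passed both limits. Locus numbers that do not end in 0 made up 42.1% of the 38 numbered loci, against 44.7% of the 4078 other loci with 40 to under 150 Bd21-3 reads and 27.2% of all 19414 other numbered loci with 40 reads.

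The close pair was BRADI_4g05655v3 and BRADI_4g05675v3 on chromosome 4, which lie 3 places apart. BRADI_4g05655v3 had 28 and 37 reads in jmj1-1, against 152 and 171 reads in Bd21-3, and was 4.48-fold lower (3.48 to 6.04). BRADI_4g05675v3 had 10 and 18 reads in jmj1-1, against 61 and 72 reads in Bd21-3, and was 4.24-fold lower (2.88 to 6.80). The 2 falls were of like size, and their intervals overlap.

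Most neighbours of this pair on 1 side were lower too, by smaller factors. This stretch was picked out after its values were seen. BRADI_4g05630v3 had 22.6 and 20.0 CPM in jmj1-1, against 37.7 and 36.8 CPM in Bd21-3, a log2 change of -0.85. BRADI_4g05620v3 had 19.1 and 16.1 CPM in jmj1-1, against 31.7 and 24.0 CPM in Bd21-3, a log2 change of -0.71. BRADI_4g05650v3, the locus directly before the pair, had 32.8 and 30.6 CPM in jmj1-1, against 46.4 and 43.5 CPM in Bd21-3, a log2 change of -0.56. These 3 were called lower by edgeR over all genes and under each of 9 alternative fits.

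BRADI_4g05640v3, with 1.62 and 1.95 CPM in jmj1-1 against 3.57 and 2.73 CPM in Bd21-3, was called lower (adjusted p = 0.026) and lost its call in 5 of the 9 alternatives, with adjusted p up to 0.33. Between the pair, BRADI_4g05660v3 had no read in any library. BRADI_4g05670v3 had 5.84 and 6.36 CPM in jmj1-1, against 7.99 and 7.997 CPM in Bd21-3, and did not pass (log2 change -0.45, adjusted p = 0.061). Beyond the stretch, BRADI_4g05610v3 on 1 side had 33.3 and 37.2 CPM in jmj1-1 against 37.0 and 33.8 CPM in Bd21-3, and BRADI_4g05680v3 on the other had 14.6 and 14.4 CPM in jmj1-1 against 15.1 and 12.8 CPM in Bd21-3. In both of these the groups overlapped. The strand setting of the counting is not given, so reads that adjacent or antisense loci share could not be told apart.

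Of 237 tested loci within 5 places of the 39, the 39 themselves not counted, 25 (10.5%) were called lower and 10 (4.22%) higher, against 7.75% and 6.13% of all tested loci. With library totals alone, a scaling tried after the data were seen, 24 (10.1%) of the same 237 were called lower and 18 (7.59%) higher, against 5.33% and 9.51% of all tested loci. Without the stretch of chromosome 4, 21 of 227 (9.25%) were called lower. That share still includes the neighbours of BRADI_3g14710v3 on chromosome 3, of which 3 of 7 tested were called lower. The median log2 change of the 237 was -0.02. Neighbours can share reads or a stretch, so no test is attached to these shares. Directly beside the loci, 4 of 41 tested neighbours were called lower and 1 higher. The 41 leave out BRADI_4g05670v3 and BRADI_4g05680v3, which lie directly beside BRADI_4g05675v3 but were counted as farther neighbours of BRADI_4g05655v3. Neither was called (edgeR, adjusted p = 0.061 and 0.996).

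Of the 39 loci, 5 had 2 or more neighbours called lower, namely the pair on chromosome 4 and BRADI_3g14710v3, BRADI_3g31720v3 and BRADI_3g06320v3. The 2 such neighbours of BRADI_4g05675v3, BRADI_4g05640v3 and BRADI_4g05650v3, are also neighbours of BRADI_4g05655v3. The share of all loci with 2 or more such neighbours was not counted, so nothing is read from the 5. After BRADI_3g14710v3 a second run was lower, also picked out after its values were seen. BRADI_3g14740v3 had 8.33 and 7.31 CPM in jmj1-1, against 13.3 and 11.4 CPM in Bd21-3, a log2 change of -0.71. BRADI_3g14750v3, next in order, had 10.1 and 10.3 CPM in jmj1-1, against 17.3 and 17.1 CPM in Bd21-3, a log2 change of -0.81. These and the next locus, BRADI_3g14760v3, were called lower by edgeR and under each of 9 alternative fits. BRADI_3g14722v3 and BRADI_3g14730v3, which lie between BRADI_3g14710v3 and this run, did not pass (log2 changes 0.26 and 0.02, adjusted p = 0.56 and 0.92).

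Neighbours with a called change of 2-fold or more numbered 5, of which 4 were lower. The share of all tested loci called at 2-fold or more was not counted, so nothing is read from these numbers. BRADI_3g14760v3, 5 places after BRADI_3g14710v3, had 80 and 61 reads in jmj1-1, against 216 and 232 reads in Bd21-3, a log2 change of -1.59. BRADI_3g31727v3, directly after BRADI_3g31720v3, had 24 and 31 reads in jmj1-1, against 64 and 54 reads in Bd21-3, a log2 change of -1.02. The other lower ones were BRADI_4g37000v3 and BRADI_1g23710v3, at -1.36 and -1.16, and the higher one was BRADI_2g00501v3, at 1.36. Around the 8 largest falls, 4 of 52 tested neighbours were called lower and 3 higher, against 7.75% and 6.13% of all tested loci. Nothing is read from these counts. The log2 changes of the 52 ran from -0.92 to 1.16, so no tested neighbour within 5 places shared a fall of 10-fold or more.

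**Figure D5:**
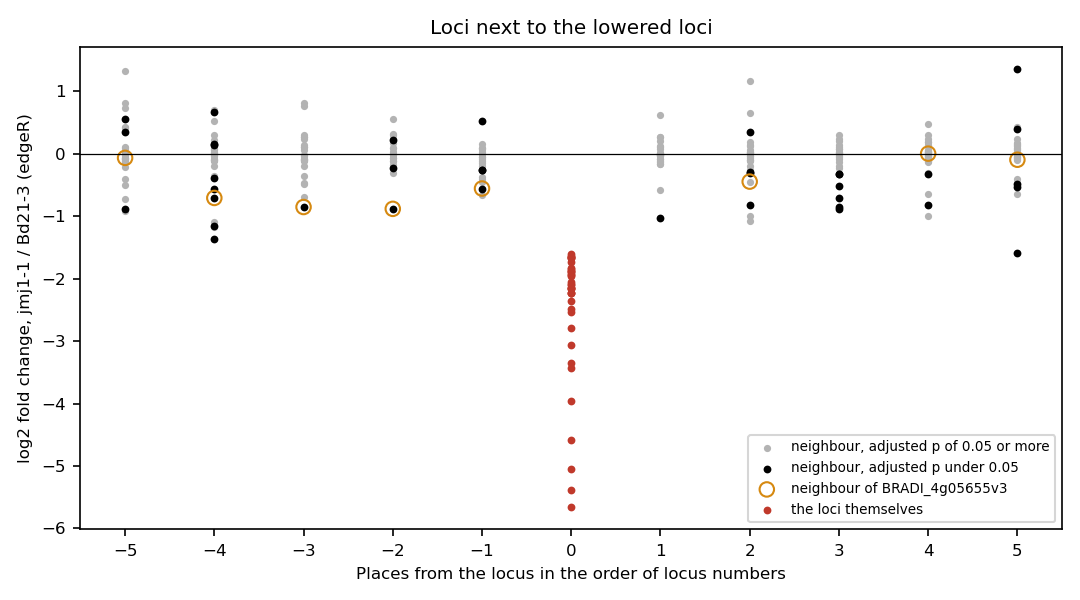
Log2 fold change of jmj1-1 over Bd21-3 (edgeR) for the loci at 0 (red) and tested loci up to 5 places before and after them. Places are in locus order. Neighbours are black at an adjusted p under 0.05 and grey otherwise, and those of BRADI_4g05655v3 are circled. Not drawn are BRADI_3g10520v3, which has 0 jmj1-1 reads, and BRADI_0014s00100v3, which is on a scaffold and has no place in the order. Neighbours lie between -1.59 and 1.36, and the 4 circled points directly before BRADI_4g05655v3 lie between -0.88 and -0.56.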

How the data were processed

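Leaf mRNA libraries were made with a stranded kit, per the labels. The authors deposited raw read counts for each locus and library. cutadapt, HISAT2, SAMtools and featureCounts were used by the authors, per the submitters' processing notes. Their versions, the build, the strand setting and the handling of multi-mapping reads are not stated there, so close copies or overlapping loci may share or split reads. In the RefSeq genes of assembly Brachypodium_distachyon_v3.0, 0 BRADI identifiers were found, so sequences and gene lists by description were not analysed here.

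Groups and replicate numbers came from the titles. CPM was computed from column totals. The test over all genes was edgeR 4.0.16 in R 4.3.3 (quasi-likelihood F-test, two-sided, filterByExpr, TMM, Benjamini-Hochberg, threshold 0.05), checked on simulated counts. The simulated counts left out loci of the lowest mean levels and gave all loci the same small spread. They do not check the test for loci with the fewest reads or with replicates far apart. Log2 changes named as edgeR's, and those of neighbours, come from the edgeR fit over all genes. Intervals are exact 95% Clopper-Pearson intervals of the observed summed reads (SciPy 1.17.1) and cover counting error only. In a ratio, 0 reads over a genotype were replaced by a floor of 3. Alternatives covered DESeq2 1.42.0, other scalings, limits and filters, a replicate block and each library left out.

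The 39 loci and the comparisons were chosen with earlier results of these data known. Loci named were the 12 with the highest mean CPM in Bd21-3, the 12 with the largest fold, those with Bd21-3 replicates over 2-fold apart or overlapping groups, those within 10 places of another, and those next to the limits, 27 of the 39 in all. Neighbours and the stretches of chromosomes 3 and 4 were named after their values were seen.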

Additional observations from a re-analysis of the deposited data

How the results depend on the processing

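The number of loci follows from the limits. It was 101 at a fold limit of 2, 22 at 4, 65 at a read minimum of 20, 25 at 80, and 22 where the lower Bd21-3 library had to be 3 times the higher jmj1-1 library. TMM-scaled CPM gave 44, among them all 39. Leaving out 1 library, with the read minimum kept per library, gave 43 to 57 loci, of which 33 to 35 were among the 39. Their median log2 ratio was -2.08 and ran from -2.30 to -2.02 without 1 library. BRADI_5g08580v3 turned to a log2 change of 1.19 without Bd21-3 replicate 1 (edgeR, adjusted p = 0.20) and was at -3.47 without Bd21-3 replicate 2. The cause was not tested. Over all genes 2978 were called, against 1788 without the filter on low counts, 1283 in DESeq2 and 1792 to 2856 without 1 library, where fewer libraries leave less power and a lone library is assumed to vary like the others. Of the 39 loci, the number called lower was 29 in DESeq2 and 34 without the filter. A kept call says nothing of stability, because the rule used this contrast. Loci that lost their call in DESeq2 included BRADI_5g08580v3 (adjusted p = 0.67), BRADI_0014s00100v3 (0.45) and BRADI_3g16650v3 (0.22). With library totals alone, 1143 genes were called lower and 2041 higher, against 1663 and 1315, and the neighbours called higher numbered 18, against 10. Libraries with the same number deviated with a correlation of -0.016, and no label pairs them. With the replicate block 3140 genes and 39 of the 39 loci were called. At 13825916 to 16520046 reads per library, 20 and 21 of the 39 loci had 10 or fewer reads in the jmj1-1 libraries. The sizes of their falls are therefore known loosely.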
